A study of Mus musculus with 2 samples.

Results

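MicroRNA genes were examined in Langerhans cells, dendritic-like immune cells that live in the epidermis, sorted from 2 genotypes of mice after ultraviolet exposure. Of 296 microRNA genes with a probe set of their own on the array, 95 read at or above an intensity of 48.7 on at least 1 of the 2 arrays, and these 95 are described. They were chosen by that measured value. The threshold, called the floor, is the middle value of the whole table over the pair of arrays. Because the choice used the same 2 arrays that are compared, the levels and differences below are descriptions and carry no test. The series holds 1 array of Il34+/LacZ cells, from mice with 1 working copy of Il34, and 1 array of Il34LacZ/LacZ cells, from mice with the LacZ cassette in both copies. Both groups were 8 to 12 weeks old, both had ultraviolet light for 30 min, and cells positive for Langerin and Epcam were taken from both 21 days later. Keratinocytes make IL-34, which signals through the CSF1 receptor on Langerhans cells, and no mouse with 2 working copies and no unexposed mouse was part of these groups. Whether each array holds RNA of 1 mouse or of several was not stated in the labels.

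A microRNA gene is transcribed into a long primary transcript, from which Drosha with Dgcr8 cuts a hairpin. Xpo5 exports the hairpin, Dicer1 cuts it to a short duplex, and 1 strand guides an Argonaute protein to messenger RNAs, mainly through its seed, bases 2 to 8. Mice whose Langerhans cells lack Dicer lose these cells over time, so the pathway is needed to keep them. The array was an Affymetrix mouse whole-transcript gene array, made for messenger RNA, and RNA was isolated with a spin column. Whether a probe set at a microRNA gene read the primary transcript, the hairpin or the mature strand is not given in the sources used here, so the values are called levels of the gene, not of mature microRNA.

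Sequences of genes that the results below return to come first, as RefSeq lists them on mouse build GRCm38.p6, written 5′ to 3′ with the seed in capitals. RefSeq gave a mature sequence for 87 of the 95 genes. The first set holds strands of genes that read lower in Il34LacZ/LacZ. It shows that the Mir23a, Mir27a and Mir24-2 genes, which lie side by side at chr8:84208518-84208921 on the plus strand, carry 3 different seeds, whereas Mir15a and Mir16-1, neighbours at chr14:61631880-61632110 on the minus strand, share 1.
miR-142a-5p: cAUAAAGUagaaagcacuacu
miR-142a-3p: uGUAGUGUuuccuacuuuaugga
miR-23a-3p: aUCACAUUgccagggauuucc
miR-27a-3p: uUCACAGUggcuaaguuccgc
miR-24-3p: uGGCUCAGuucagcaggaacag
miR-15a-5p: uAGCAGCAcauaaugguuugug
miR-16-5p: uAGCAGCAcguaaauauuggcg

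The second set holds strands of genes that read higher in Il34LacZ/LacZ, which share no seed with the first set or with each other.
miR-341-3p: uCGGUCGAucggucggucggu
miR-99b-5p: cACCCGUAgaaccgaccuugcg
miR-194-5p: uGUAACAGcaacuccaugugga
miR-138-5p: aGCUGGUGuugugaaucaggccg
miR-155-5p: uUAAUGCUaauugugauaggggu

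The 2 genes at the ends of the ranking are shown as whole hairpins, with both mature strands in capitals. Mir142 (chr11:87756864-87756927, plus strand) has 42.2% G and C bases, and Mir341 (chr12:109611500-109611595, plus strand) has 59.4%. The Mir341 hairpin repeats the letters UCGG 8 times. Of the 258 measured microRNA genes with a RefSeq hairpin, 44 hold those letters at all on the hairpin strand, and the next highest count was 3. What other RNAs the Mir341 probes could bind was not tested.
Mir142: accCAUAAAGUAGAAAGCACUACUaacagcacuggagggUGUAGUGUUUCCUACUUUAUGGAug
Mir341: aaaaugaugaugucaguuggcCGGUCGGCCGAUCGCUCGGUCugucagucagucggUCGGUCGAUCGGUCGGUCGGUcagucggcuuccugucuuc

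Each value is an intensity from 1 array (n = 1). A difference is the log2(intensity + 16) of Il34LacZ/LacZ less that of Il34+/LacZ, a scale that understates the change of dim genes. Every fold is likewise a ratio of intensity + 16, so it is smaller than the ratio of the printed intensities. Probe sets of the same gene disagreed by 0.63 on that scale, and this was the error available (SD, 614 genes with several probe sets at or above the floor). It covers neither mice nor sorts. Among microRNA genes only Mir713 had several probe sets. Its brightest probe set read 58.5 and 42.8, in the order Il34+/LacZ, Il34LacZ/LacZ used for pairs of values from here on. The others read 17.9 and 22.2, and 18.2 and 21.0, below the floor and in the opposite direction.

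Il34 itself, at 39.4 in Il34+/LacZ, was near the floor and was not lower in Il34LacZ/LacZ, at 64.4. Where its probes lie relative to the LacZ insertion is not given in the sources used here, so Il34 does not check the labels. The Langerin gene Cd207, used for the sort, read 3153.0 and 1852.0, and Epcam, also used, 632.9 and 707.7. T cell genes were also well above the floor in both sorts, with 4 of 4 measured markers passing and Cd3e at 1245.4 and 1250.3. Keratinocyte markers were lower in Il34LacZ/LacZ: 11 of 12 passed the floor, all 11 read lower, and their summed level was 5013.7 against 807.5. Summed neutrophil markers, 5 of 8 passing, were 322.9 against 1510.4. S100a8 (71.9 and 552.1) and S100a9 (103.2 and 698.6) made most of that sum, while Ly6g was near 0 at 8.51 and 11.5 and Cxcr2 and Retnlg were below the floor and not higher. Summed macrophage markers, 10 of 11 passing, were 3094.9 against 4408.0, and their directions were mixed: 7 read higher, Pf4 most, and Lyz2, Adgre1 and Ccr2 lower. In sorted bulk RNA, fewer cells of a type and less RNA per cell cannot be told apart, and the part of these cells in the microRNA values was not tested.

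Most of the 95 genes were dim. In Il34+/LacZ they ran from 15.6 to 1354.8 with a median of 74.0, and in Il34LacZ/LacZ from 9.07 to 1508.3 with a median of 91.1. In 71 genes both values were under 200, and in 6 genes 1 value was at least 500. The brightest on average were Mir692-1, at 1354.8 and 1444.8, and Mir598, at 697.8 and 1508.3. Then came Mir341, Mir667, Mir194-2, Mir346, Mir328, Mir99b, Mir181d and Mir320. Of the 10 brightest, Mir181d alone was on the list of leukocyte microRNAs.

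Of the 95 genes, 67 passed the floor on both arrays, 10 only in Il34+/LacZ and 18 only in Il34LacZ/LacZ. The 28 that passed on 1 array had to differ in that direction, so the counts over the 95 are not evidence of a shift. Just inside the floor lay Mir680-1, with a higher value of 51.3, Mir124a-2 at 51.3 and Mir17 at 51.6. Just outside lay Mir362 at 47.7, Mir365-2 at 46.7 and Mir504 at 46.4.

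**Figure D1:**
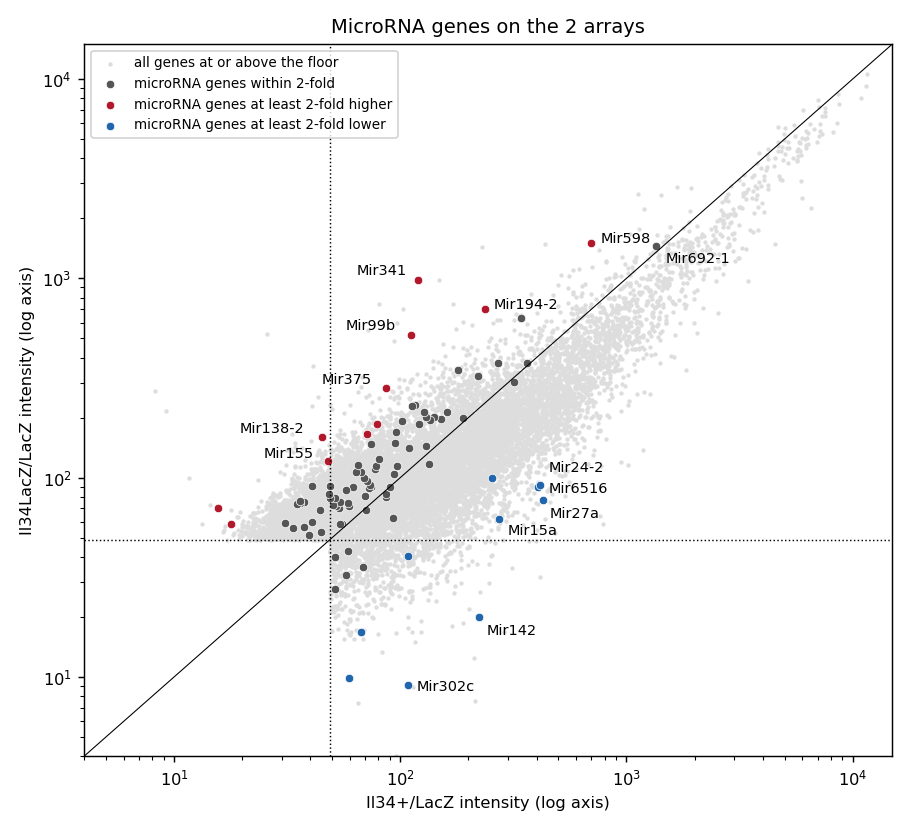
Intensity of each gene in Il34+/LacZ (x axis, log) against Il34LacZ/LacZ (y axis, log), with 1 array per genotype, all genes at or above the floor in grey and the 95 microRNA genes in colour. The dotted lines mark the floor of 48.7 and the solid line equal values. Mir341 and Mir99b stand furthest above the line, Mir142 and Mir302c furthest below, and most microRNA genes lie a little above it.

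As deposited, 11 of the 95 genes read at least 2-fold higher in Il34LacZ/LacZ and 10 at least 2-fold lower. Those are 11.6% and 10.5% of the 95, beside 2.57% and 13.2% of all 12843 genes at or above the floor. Of the other 74 genes, 62 read higher and 12 lower, and the median difference was 0.43 beside -0.16 over all genes. Over all genes the difference fell with level, and after subtracting that trend 20 microRNA genes passed 2-fold in the higher direction and 10 in the lower, or 21.1% and 10.5%, beside 4.14% and 7.05% of all genes. The higher genes thus made up 52.4% of those 2-fold apart as deposited, 66.7% with the trend removed, 74.2% with the arrays scaled to their upper quartiles and 41.2% with the arrays centred on their medians. Those 2 scalings moved the median of all genes from -0.16 to 0.16 and to -0.36.

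The microRNA genes were also set beside all 19937 genes of like level, those below the floor included. Between 16 and 48 the median difference was 0.28 over 11 microRNA genes and 0.30 over 5725 genes, and between 48 and 112 it was 0.40 over 48 and 0.20 over 5505. All 11 passed the floor on 1 array only, so their directions were fixed, and the 48 hold such genes too. The 5725 and 5505 genes were not chosen in that way. Between mean intensities of 112 and 240, the median difference was 0.52 over 22 microRNA genes and -0.42 over all 3514 genes. Between 240 and 496 it was 0.45 over 11 microRNA genes and -0.68 over 1706 genes, and above 496 it was 1.09 over 3 and -0.57 over 1026. The gap was thus small from 48 to 112 and wide at higher levels, and from 16 to 48 the choice of genes allows no comparison. Over the 67 genes at or above the floor on both arrays, 7 were at least 2-fold higher and 5 lower, or 10.4% and 7.46%, beside 1.75% and 14.4% of all 9803 such genes. The SD of the differences was 0.91 over the 95 genes beside 0.72 over all genes. Small nucleolar and Cajal body RNA genes, other short RNA genes on the array, are given beside them. Of 54 measured 41 passed, 13 of them only in Il34+/LacZ and 3 only in Il34LacZ/LacZ. Of the 25 at or above the floor on both arrays, 6 read at least 2-fold lower and 3 at least 2-fold higher. Their median was -0.39 beside -0.30 over all such genes and 0.42 over the 67 microRNA genes. The difference between the 2 classes was not tested.

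The genes that read lower in Il34LacZ/LacZ were led by Mir142 and by the Mir23a cluster. Mir142, a microRNA gene of blood cell lineages, read 223.6 in Il34+/LacZ. In Il34LacZ/LacZ its value of 20.1 was below the floor, so it was at least 3.70-fold lower. Ptprc, the pan-leukocyte gene CD45, read 1345.6 and 1078.2 in the same samples, a difference of -0.32, and Cd3e hardly differed. With the trend removed Ptprc was at 0.24 and Mir142 at -2.82. Whether the share of leukocytes had a part in the Mir142 value was not tested. Mir142 lies on chromosome 11, overlaps the Mir142b gene, and was at least 2-fold lower under every processing setting tried per gene.

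The 3 genes of the Mir23a cluster, which are made from 1 primary transcript and are expressed in myeloid cells, all read lower. Mir27a went from 425.2 in Il34+/LacZ to 77.3 in Il34LacZ/LacZ, 4.73-fold lower. Mir24-2 read 412.7 and 91.8, 3.98-fold lower. Mir23a read 253.6 and 99.2, 2.34-fold lower. All 6 values were above the floor, and the 3 differences ran from -2.24 to -1.23, each larger than the probe set SD. With the trend removed they ran from -1.77 to -0.82. As deposited, the median of -1.99 was the lowest of the 10 groups of neighbouring microRNA genes described below. With the trend removed, the lowest median was that of Mir15a and Mir16-1, at -1.61.

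Mir15a and Mir16-1, a pair whose loss is known from human chronic lymphocytic leukaemia, were lower too. Mir15a read 272.5 and 61.8, 3.71-fold lower, and Mir16-1 read 66.7 and 16.8, at least 1.28-fold lower because the second value is below the floor. Both lie inside Dleu2, a long noncoding RNA gene on the same strand, whose own probe set read 5.80 and 4.05, below the floor in both samples. The Dleu2 value therefore gives no measure of the transcript that carries them.

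The remaining genes at least 2-fold lower were Mir302c, Mir6516, Mir20a and Mir7-1. Mir302c, known from embryonic stem cells, read 107.9 and 9.07, at least 1.91-fold lower. Mir6516, which lies inside the noncoding gene Snhg20, read 406.7 and 89.3, 4.01-fold lower. Mir20a read 59.0 and 9.82, at least 1.16-fold lower, and Mir7-1 read 108.5 and 40.3, at least 1.92-fold lower. Of the 10 genes, 5 were below the floor in Il34LacZ/LacZ, and for Mir16-1, Mir302c, Mir20a and Mir7-1 the guaranteed part of the fold is under 2. Counting an array below the floor at the floor left 6 genes at least 2-fold lower.

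**Figure D2:**
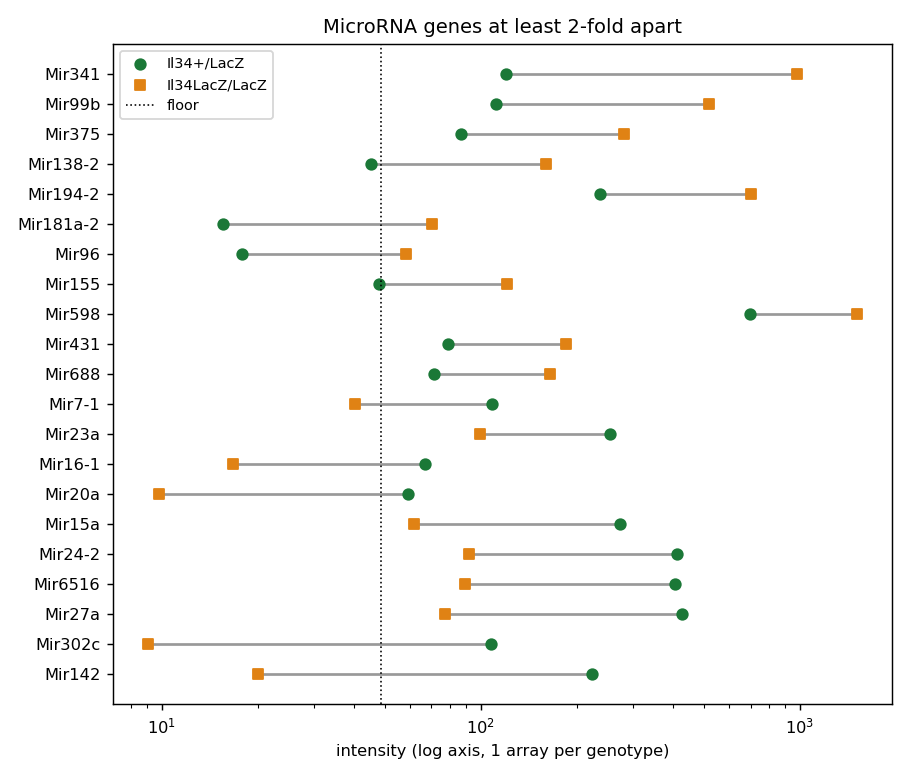
Intensity (log x axis) of the 21 microRNA genes at least 2-fold apart, with 1 array per genotype: circles for Il34+/LacZ, squares for Il34LacZ/LacZ, and the floor as a dotted line. Of the 10 lower genes, 5 end below the floor, and of the 11 higher genes 4 start below it, Mir155 only just.

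The genes that read higher were led by Mir341 and Mir99b. Mir341 went from 119.5 in Il34+/LacZ to 979.8 in Il34LacZ/LacZ, 7.35-fold higher. It lies inside Rian, an imprinted noncoding gene on the same strand, whose own probe set read 14.6 and 16.8, below the floor on both arrays. Mir99b read 111.4 and 517.1, 4.18-fold higher. Mir99b lies at chr17:17830188-17830257 within 1 kb of Mirlet7e and Mir125a, with which it forms a cluster. Mir125a was also higher but by less, at 61.5 and 90.1, or 0.45, less than the probe set SD. Mirlet7e read 41.5 and 43.1, below the floor on both arrays.

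Mir375, Mir194-2 and Mir138-2 followed. Mir375, known in mice from pancreatic islets, read 86.5 and 281.6, 2.90-fold higher. Mir194-2, known from liver and intestine, read 236.8 and 703.0, 2.84-fold higher. Mir138-2 read 45.2 and 159.9, at least 2.72-fold higher. Mir598 read 697.8 and 1508.3, 2.14-fold higher, Mir431 read 78.9 and 185.0, 2.12-fold higher, and Mir688 read 71.1 and 164.7, 2.07-fold higher.

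Mir155, which activated macrophages, dendritic cells and lymphocytes switch on, was at the floor in Il34+/LacZ. It read 48.0 there and 120.7 in Il34LacZ/LacZ, at least 2.11-fold higher, and the difference ran from 0.72 to 1.33 over the settings. The last 2 genes rested on values near or below the floor. Mir181a-2 read 15.6 and 70.0, at least 1.33-fold higher, and Mir96, known from hair cells of the inner ear, read 17.8 and 58.3, at least 1.15-fold higher. Mir341, Mir99b, Mir375, Mir194-2 and Mir138-2 were at least 2-fold higher in every setting tried per gene. Mir142, Mir27a, Mir24-2, Mir15a, Mir6516 and Mir302c were at least 2-fold lower in each of these settings. Raising values to the floor was not among them, and it left Mir302c 1.91-fold lower.

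Of 22 measured leukocyte microRNA genes on a list of 32, 12 passed the floor, 4 were at least 2-fold lower and 2 at least 2-fold higher, with a median difference of 0.27. Those are 33.3% and 16.7% of the 12, beside 10.5% and 11.6% of the 95 and 13.2% and 2.57% of all genes. The 4 lower genes were Mir142 and the Mir23a cluster, whose 3 genes share a transcript, and the 2 higher ones Mir155 and Mir181a-2. Of the 12, 4 passed only in Il34LacZ/LacZ, both higher genes among them, and Mir142 only in Il34+/LacZ. Their directions were fixed by the choice. Over the 7 at or above the floor on both arrays, the median was -0.07. None of the 7 was 2-fold higher, and 3 were 2-fold lower, or 42.9% beside 14.4% of all such genes. Mir146b, a gene of the NF-kB feedback loop, read 40.7 and 91.2, at least 1.66-fold higher, whereas its relative Mir146 was far below the floor at 6.06 and 5.54. Mir150, a gene of mature lymphocytes, read 96.7 and 113.8, a difference of 0.20. Mir342, inside the actin regulator gene Evl, read 36.0 and 75.9, at least 1.42-fold higher, while Evl itself read 310.3 and 371.2.

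MicroRNAs of epithelial cells were not detected above the floor. Mir200a, Mir200b, Mir200c, Mir141, Mir203 and Mir205, which epithelial cells express, read between 6.16 and 30.5 in Il34+/LacZ, and none of the 6 passed. Keratinocyte messenger RNAs were far above the floor on the same array, with Krt5 at 1187.5, so a value below the floor does not show that a microRNA was absent from the cells. Mir205 read 11.2 and 41.0, Mir203 9.99 and 9.35. Of 19 measured genes that mark other tissues, only Mir124a-2 of neurons, Mir211 of melanocytes and Mir375 passed. Mir211 read 78.4 and 113.8, and Mir124a-2 39.5 and 51.3. Genes of red cells and endothelium were below the floor on both arrays, Mir144 at 4.04 and 3.81, Mir451a at 13.0 and 22.7, and Mir126a at 7.91 and 9.28.

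Genes that share a seed can lie in different transcripts. The strands below all carry the seed AAAGUGC. Mir17 and Mir20a belong to the Mir17 cluster (chr14:115043671-115044391, plus strand), which MYC switches on, and Mir106b and Mir93 to its relative inside the replication gene Mcm7 (chr5:138165321-138165818, minus strand).
miR-17-5p: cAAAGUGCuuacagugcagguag
miR-20a-5p: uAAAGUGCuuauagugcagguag
miR-106b-5p: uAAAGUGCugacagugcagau
miR-93-5p: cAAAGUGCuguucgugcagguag

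In the Mir17 cluster 3 of 5 measured genes passed, all only in Il34+/LacZ. Mir17 read 51.6 and 40.0, Mir18 57.5 and 32.5, and Mir20a 59.0 and 9.82. Their lower reading in Il34LacZ/LacZ was fixed by how they passed. In the same cluster Mir19a and Mir19b-1 stayed under 13. In the Mcm7 cluster all 3 genes were above the floor on both arrays and higher. Mir25 read 94.2 and 149.5, Mir93 63.7 and 106.8, and Mir106b 51.8 and 72.0, with differences from 0.38 to 0.62, none larger than the probe set SD. Mcm7 itself read 147.1 and 106.0, a difference of -0.42 in the opposite direction. With the trend removed the 3 genes were still higher, by 0.14 to 0.83, and Mcm7 lower by -0.14. The difference between the 2 clusters was not tested.

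Some genes at different places encode the same mature strand, and 5 such sets were among the 95. miR-7a-5p (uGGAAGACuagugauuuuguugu) comes from Mir7-1, lower by at least 1.92-fold, and from Mir7-2, which read 51.6 and 79.2, a difference of 0.49. miR-138-5p comes from Mir138-2, higher by 1.52, and from Mir138-1, which read 189.2 and 198.9, a difference of 0.07. miR-194-5p comes from Mir194-2, higher by 1.51, and from Mir194-1, which read 71.1 and 96.7, a difference of 0.37. Mir219a-1 and Mir219a-2, which encode miR-219a-5p, read more alike, with differences of 0.54 and 0.81. The 3 Mir680 genes ran from -0.63 to 0.42. A value for 1 gene is therefore not a value for the mature microRNA. Of 12 seeds shared by 2 or more of the genes, 5 had genes in both directions, but 4 of the 5 were mixed only through genes that passed on 1 array, and the fifth through Mir181d at -0.07, which turned higher with the trend removed.

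Let-7 genes, which hold cells in a differentiated state and which Lin28 proteins block, were mostly dim. Of 10 measured genes, Mirlet7g and Mirlet7i passed. Mirlet7g read 74.1 and 146.8, 1.81-fold higher, and Mirlet7i read 73.5 and 91.4, a difference of 0.26. Both carry the same seed.
let-7g-5p: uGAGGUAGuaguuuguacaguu
let-7i-5p: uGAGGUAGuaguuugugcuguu

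Neighbouring microRNA genes, within 10 kb of each other, formed 10 groups with 2 or more of the genes above the floor, holding 30 of the 95. As deposited, all such genes read lower in 4 groups and higher in 3, and in 3 the signs were mixed. The lower groups were the Mir23a, Mir15a and Mir17 clusters and the pair Mir191 and Mir425, which read 86.8 and 83.1, and 92.8 and 62.8. The higher groups were Mir99b with Mir125a, the Mcm7 cluster, and Mir449a with Mir449c. Genes that passed on 1 array had a fixed direction, so these counts are not evidence that neighbours go together. Mir17, Mir18, Mir20a and Mir16-1 had to read lower. Mir449a, and in the mixed groups Mir337, Mir127 and Mir485, had to read higher. Mir449c (93.9 and 104.0) turned lower with the arrays centred on their medians, and Mir191 turned higher with the 75th percentile scaling and with quantile normalization. Mir181d with Mir181c, genes of a family that tunes T cell receptor sensitivity, was mixed at 318.2 and 303.0, and 109.2 and 141.0, and both genes were higher with the trend removed, the 75th percentile scaling or quantile normalization. Groups were set by distance alone, and neighbours can share a transcript, so genes of a group are not taken as independent measurements.

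**Figure D3:**
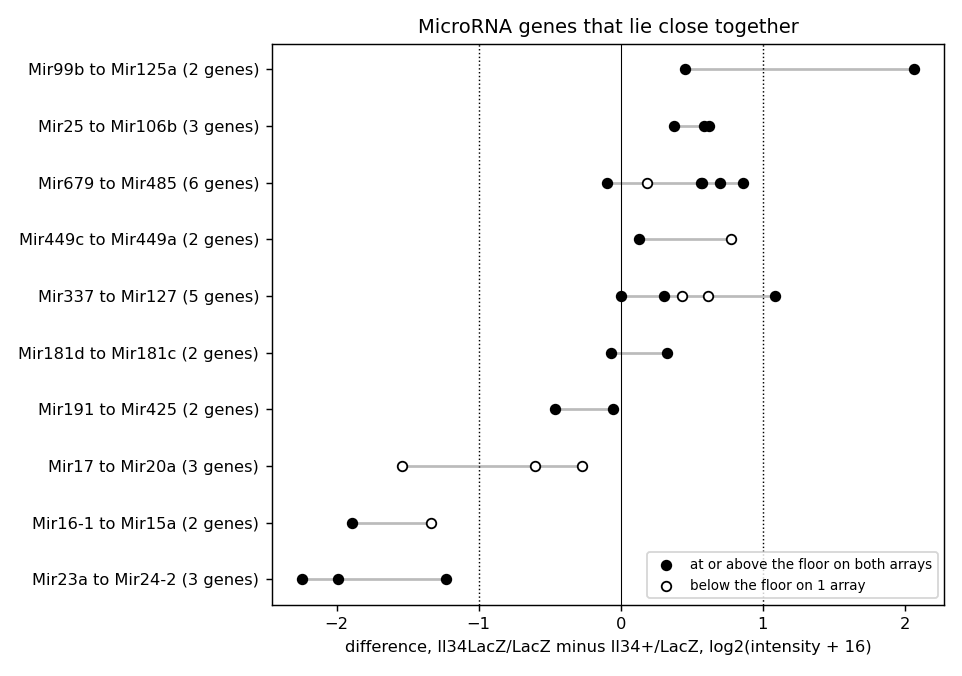
Difference in log2(intensity + 16), Il34LacZ/LacZ minus Il34+/LacZ, for genes at or above the floor in the 10 groups of neighbouring microRNA genes, 1 point per gene. Open points were below the floor on 1 array and dotted lines mark 2-fold. The Mir23a and Mir15a groups lie wholly beyond 2-fold lower, and the widest spread within 1 group is that of Mir99b and Mir125a.

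The imprinted Dlk1-Dio3 region of chromosome 12, a large array of microRNA genes expressed from the maternal copy, held 13 of the 95 genes, of 40 measured there. Of the 13, 11 read higher, 2 of them at least 2-fold, and none was 2-fold lower. Among the 11, Mir337, Mir127 and Mir485 passed only in Il34LacZ/LacZ and had to read higher. The other 82 microRNA genes held 15 such genes and 10 that passed only in Il34+/LacZ. Of the other 82 microRNA genes 62 read higher, and 11.0% were at least 2-fold higher beside 15.4% in the region. With other scalings 11 to 13 read higher. The group had a median difference of 0.57 beside 0.42 over the other 82 genes. Besides Mir341 and Mir431, Mir667 read 342.3 and 635.3, 1.82-fold higher, Mir666 130.4 and 200.6, and Mir673 151.3 and 196.8. Mir540 (90.0 and 89.9) and Mir668 (86.4 and 79.7) hardly differed. The long transcripts of the region were dim: Meg3 read 30.5 and 52.2 and Rtl1 38.7 and 61.3. Dlk1, at the edge of the region, read 154.1 and 288.1.

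Differences of microRNA genes were hardly correlated with those of the same-strand protein-coding genes they lie in. Of the 95 genes, 21 lie inside a protein-coding gene on the same strand that also passed the floor, in 17 different host genes. Pairs whose strands were not clear from the sources used here were left out. Among these were genes inside Rtl1, and Mir598 in Xkr6 (differences of 1.09 and 0.64) and Mir3107 in Ank1 (0.73 and 1.05). Mir149 in Gpc1 (0.24 and 0.52) and Mir326 in Arrb1 (0.44 and -1.47) were left out too. In 10 of the 21 the microRNA gene read higher and the host lower, in 7 both read higher and in 4 both lower. Some of these directions were fixed by passing the floor on 1 array. Mir103-2, Mir138-2, Mir26b, Mir342 and Mir449a had to read higher, and Mir7-1 and Mir697 lower. Among the hosts, Pde2a, Cdc20b and Igf2 had to read higher and Clcn5 lower. Under the trend removal and 3 scalings the first count was 10 or 11. Of the 95 microRNA genes 73 read higher, and of all 12843 genes at or above the floor 7230 read lower. The counts over the 21 are therefore not read as a result about the pairs. Across the 21 pairs, which share arrays and in part hosts, Pearson's r between the differences was 0.01 and Spearman's rho 0.05. The widest split was at Mirlet7g, higher by 0.85, inside Wdr82, a histone methylation factor gene, which read 448.0 and 87.0, lower by -2.17. Mir103-2 read 30.9 and 58.9 inside the coenzyme A synthesis gene Pank2, at 446.7 and 165.8. Mir26b read 33.5 and 55.8 inside the phosphatase gene Ctdsp1, at 357.0 and 147.9. Mir7-1, by contrast, was lower together with Hnrnpk, an RNA-binding protein gene at 2108.8 and 1305.8.

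**Figure D4:**
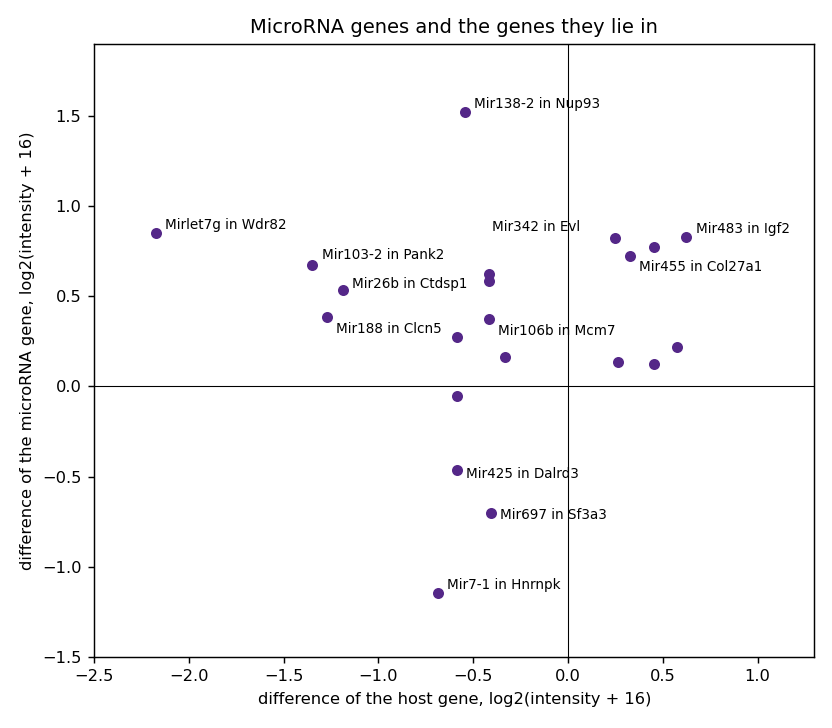
Difference of 21 microRNA genes (y axis) against that of the same-strand protein-coding gene each lies in (x axis), both Il34LacZ/LacZ minus Il34+/LacZ in log2(intensity + 16), 1 point per microRNA gene. The points show no common slope, and 10 of 21 lie in the upper left, with the microRNA gene higher and the host lower. Of the 95 microRNA genes 73 read higher, and of all 12843 genes at or above the floor 7230 read lower. Genes that passed the floor on 1 array had a fixed direction.

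Base composition went with the level. Over the 258 measured microRNA genes with a RefSeq hairpin, the share of G and C bases and the mean level had Spearman's rho of 0.80, a description across genes of the same 2 arrays. Of the 65 genes with the fewest G and C bases 2 passed the floor, or 3.08%, and of the 65 with the most 51 passed, or 78.5%. The median share was 56.0% in 78 genes that passed and 44.8% in 180 that did not. Passing the floor was therefore not independent of sequence, and which part of a level came from RNA abundance was not tested. The share and the difference had a rho of 0.40 over the same 258 genes. Over the 78 genes that passed, rho was 0.50 with the level and 0.21 with the difference, or 0.34 with the trend removed. The median share was 57.7% in 9 of the 11 higher genes and 47.1% in 9 of the 10 lower genes, yet Mir27a and Mir24-2, among the lowest, had 59.8% and 61.7%, and Mir155, among the higher genes, 43.1%.

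**Figure D5:**
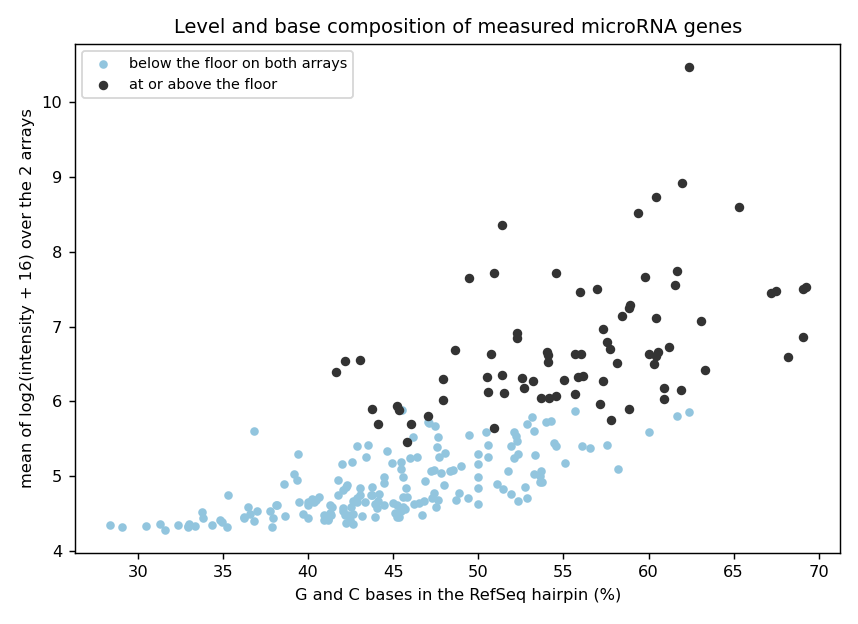
Share of G and C bases in the RefSeq hairpin (x axis, percent) against the mean of log2(intensity + 16) over the 2 arrays (y axis), for 258 measured microRNA genes. Dark points passed the floor on at least 1 array and light points did not, and the points rise from left to right (Spearman's rho 0.80).

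The other genes within 2-fold included several with known roles. Mir210, which hypoxia switches on, read 116.6 and 232.0, 1.87-fold higher. Mir92b read 112.8 and 228.0, 1.89-fold higher, and Mir383 179.5 and 347.7, 1.86-fold higher. Mir212, which the factor CREB switches on, read 140.9 and 200.9, a difference of 0.47. Mir320 read 221.2 and 322.5, Mir328 271.6 and 377.6, and Mir346 363.8 and 378.0. In all, 57 of the 95 differences were smaller than the probe set SD.

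Genes of the microRNA machinery mostly read lower in Il34LacZ/LacZ. Of 46 listed genes 45 passed the floor, 39 read lower and 5 higher. At least 2-fold lower were 12 of the 45, or 26.7% beside 13.2% of all genes, and none was 2-fold higher. The median difference was -0.80 as deposited and -0.39 with the trend removed, when 5 were at least 2-fold lower and 2 higher, or 11.1% and 4.44% beside 7.05% and 4.14% of all genes. Most of these genes were brighter than genes in general, with a median of 190.6 in Il34+/LacZ. The share of all genes at least 2-fold lower as deposited depended on the mean level. It was 5.76% from 48 to 112, 17.8% from 112 to 240, 30.3% from 240 to 496 and 19.9% above 496. The machinery genes were spread over these levels and were not matched to them. Whether their 26.7% differs from genes of like level was not tested. Keratinocyte markers were lower in the same sample, and their part in this was not tested.

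Of 11 processing genes 1 was at least 2-fold lower, Khsrp, a hairpin-binding factor gene, at 226.0 and 85.7. Drosha, the nuclear nuclease, read 90.8 and 127.8, higher by 0.43, and its partner Dgcr8 read 100.4 and 79.1, lower by -0.29. Dicer1 read 190.6 and 91.2, 1.93-fold lower, and the exporter Xpo5 177.7 and 98.8, 1.69-fold lower. Of the Argonaute genes, Ago2, which encodes the member that cuts its target, read 441.4 and 211.8, 2.01-fold lower, and Ago1 125.1 and 59.3, 1.87-fold lower. Ago3 (59.5 and 48.4) and Ago4 (98.9 and 86.2) differed by -0.23 and -0.17, and Ago4 turned to 0.08 with the 75th percentile scaling. With the trend removed the differences were 0.61 for Drosha, -0.63 for Dicer1, -0.41 for Ago2 and -0.90 for Ago1. The helicase gene Mov10 read 88.1 and 165.6, 1.75-fold higher, and Zc3h12a, whose product cuts hairpins in immune cells, 251.1 and 344.2, 1.35-fold higher.

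The genes that act after target recognition, for removal of the messenger's tail and cap, read lower as a list. All 19 passed the floor, all 19 read lower, and 9 were at least 2-fold lower, or 47.4% beside 13.2% of all genes, with a median of -0.88. These genes were bright, with a median of 225.2 in Il34+/LacZ. Of all genes with a mean level of 112 to 240, 17.8% were at least 2-fold lower, with a median of -0.42. From 240 to 496 it was 30.3%, with a median of -0.68. Pan3, a subunit of a deadenylase, read 696.8 and 199.9, 3.30-fold lower. Cnot6l, a catalytic subunit of the CCR4-NOT deadenylase, read 426.6 and 142.2, 2.80-fold lower. The decapping enhancer Edc3 read 163.3 and 47.1, at least 2.77-fold lower. All 19 also read lower with each of the 3 other scalings. With the trend removed 18 of the 19 did, with a median of -0.67 beside 0.03 over all genes. Then 3 were at least 2-fold lower, or 15.8% beside 7.05% of all genes.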

How the data were processed

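The deposited table gave each probe set an intensity on each array, and the values are linear, as read from their range. How probes were summarised, corrected for background and scaled is not given in the sources used here. Per the labels' protocols, biotinylated cRNA was made from total RNA of sorted cells. The table held 34760 probe sets: 21640 with 1 symbol in the platform annotation, 1321 with several and 11799 with none, and 37 of the probe sets with several held a microRNA symbol and were not used. Host genes of microRNAs named with hg were left out, and a gene was represented by its probe set with the highest mean. Values were compared as log2(intensity + 16). A single array stood for each genotype, so nothing was tested and no p-value is given. A fold with 1 value under the floor used the floor in its place and is a lower bound. The trend with level was a loess fit (fraction 0.3) over probe sets with 1 symbol. Gene positions and host genes came from the RefSeq table of GRCm38.p6 through the gene number. The members and lists were chosen with earlier results of these data known. Named genes were the 10 furthest apart in each direction, the 10 brightest, passing members of the leukocyte, epithelial, let-7 and Mir17 lists, the 3 on each side of the floor, their host genes and fixed machinery genes. Other genes named in the text were chosen after their values were seen. Alternatives changed the floor, the pseudocount, the scaling, the trend and the probe set rule. The scripts were tested on simulated data. Software was pandas 2.3.3, numpy 2.4.6, statsmodels 0.14.6, scipy 1.17.1 and matplotlib 3.10.9 under Python 3.11.15.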

Additional observations from a re-analysis of the deposited data

How the results depend on the processing

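All 20 named microRNA genes at least 2-fold apart kept their direction in 7 of the settings tried per gene, those that could move a microRNA gene's value (another floor or probe set rule could not). Of the 20, 11 stayed at least 2-fold apart in all 7. Raising values to the floor was not among the 7, and it left Mir302c, one of these genes, 1.91-fold lower. The 20 were chosen as furthest apart on these same arrays, and another pseudocount cannot turn a direction. The kept directions are therefore a description and not support for the differences. The number of microRNA genes at least 2-fold higher, 11 as reported, was 6 with a pseudocount of 64, 20 and 18 with the trend removed at loess fractions of 0.3 and 0.6, 7 with the arrays centred on their medians, 23 with the arrays scaled to their 75th percentiles, 18 with quantile normalization and 7 over genes at or above the floor on both arrays. The 23 were out of 99 genes that passed with that scaling. The share of all genes at least 2-fold higher moved too, from 2.57% as reported. It was 0.57% with a pseudocount of 64, and 4.14% and 3.82% with the trend removed. With the arrays centred it was 1.19%, with them scaled 7.91%, with quantile normalization 4.61% and with both arrays required 1.75%. The number at least 2-fold lower, 10 as reported, was 6 with the floor at the 75th percentile, 6 with a pseudocount of 64, 6 with values below the floor raised to it and 5 over genes at or above the floor on both arrays. Of all genes 13.2% were lower as reported, and in these settings, in the same order, 22.9%, 6.70%, 12.1% and 14.4%. The median difference of the microRNA genes, 0.43 as reported, was 0.54 with the floor at the 75th percentile, 0.14 with no floor, 0.51 and 0.29 with pseudocounts of 1 and 64, 0.27 with the arrays centred and 0.68 with them scaled. The machinery median, -0.80 as reported, was -0.62 with a pseudocount of 64, -0.39 and -0.43 with the trend removed, -0.98 with the arrays centred, -0.52 with them scaled and -0.46 with quantile normalization. The number of machinery genes at least 2-fold lower, 12 as reported, was 5 with a pseudocount of 64, 5 and 5 with the trend removed, 21 with the arrays centred, 6 with them scaled and 7 with quantile normalization. The share of all genes lower in these settings was, in the same order, 6.70%, 7.05% and 7.04%, 19.6%, 6.26% and 6.91%. A higher floor left 38 microRNA genes and requiring both arrays left 67. With both arrays required the share at least 2-fold lower was 7.46%, beside 10.5% as reported. The causes of these changes in count were not tested. Raising values to the floor and requiring both arrays were chosen after seeing the data. No paired analysis was possible because each genotype has 1 array. Signal near the floor limits precision: 28 of the 95 genes were below it on 1 array.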
